A study of Mus musculus with 23 samples.

Results

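Tissue macrophages of spleen and thymus were followed through 10 genes: C1qa, C1qb, C1qc, Csf1r, Mertk, Spic, Hmox1, Slc40a1, Cd5l and Vcam1. They were taken by gene symbol from the 24475 genes of the expression table, and each was found on 1 row. For description they were split by textbook role into 5 general macrophage genes (C1qa, C1qb, C1qc, Csf1r and Mertk) and 5 genes known for red pulp and iron recycling macrophages (Spic, Hmox1, Slc40a1, Cd5l and Vcam1). RNA was sequenced from 23 mouse samples in 3 groups, 1 library each. As controls, 6 normal thymus samples of C57BL/6 mice were read. The other samples were spleens of BALB/c Rag2-/-Il2rg-/- mice, hosts that lack Rag2 and the common gamma chain and so make no T, B or NK cells of their own, in which T-cell acute lymphoblastic leukemia (T-ALL) had arisen from a newborn thymus lobe grafted under the kidney capsule. The grafted lobe was wild type, of a CD45.1 line on the C57BL/6 background, in 14 hosts (WT T-ALL), and lacked Notch3 in 3 (Notch3 KO T-ALL), through a beta-galactosidase cassette placed in the first coding exon. The T-ALL spleens were unfractionated, so leukemic cells of the graft and spleen cells of the host were read together. Tissue, host strain and leukemia all part with the groups in the comparisons with thymus and cannot be told apart there, since spleens free of leukemia were not analysed here.

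Macrophages that live in a tissue depend on the receptor CSF1R, clear dying cells through receptors such as MERTK, and are the main source of complement C1q, which is built from A, B and C chains. Red pulp macrophages of the spleen engulf aged red cells. The transcription factor SPI-C directs their development, heme oxygenase 1 (Hmox1) opens the heme ring, and ferroportin (Slc40a1) exports the freed iron. CD5L is a secreted scavenger receptor protein of tissue macrophages, and VCAM-1 is an adhesion molecule that red pulp macrophages share with endothelium and stroma. Thymic macrophages clear the thymocytes that die during selection.

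The genes lie on 7 chromosomes of mouse assembly GRCm38.p6 (mm10). The C1q genes form a cluster at chr4:136880126-136898844, where C1qb, C1qc and C1qa stand next to each other within 18719 bases with 3 RefSeq genes in all. Mertk is at chr2:128698915-128803162, Spic at chr10:88675269-88683023, Hmox1 at chr8:75093618-75100593 and Slc40a1 at chr1:45908070-45926532. Cd5l at chr3:87357881-87371074 and Vcam1 at chr3:116110020-116129688 share a chromosome. No member but Csf1r overlaps another RefSeq gene, which there are Mir6983 and Gm52352. An upstream sequence was found for 5 of the 10 genes (Mertk, Cd5l, C1qb, C1qc and Spic). The stretch before the annotated start, up to 250 bases, is shown for C1qb and C1qc, which moved together from tumor to tumor, and for Cd5l and Spic, which separated the T-ALL spleens from thymus without overlap. Sequences are from RefSeq on GRCm38.p6, read 5′ to 3′ on the strand of the gene, with motif matches in capitals.
C1qb: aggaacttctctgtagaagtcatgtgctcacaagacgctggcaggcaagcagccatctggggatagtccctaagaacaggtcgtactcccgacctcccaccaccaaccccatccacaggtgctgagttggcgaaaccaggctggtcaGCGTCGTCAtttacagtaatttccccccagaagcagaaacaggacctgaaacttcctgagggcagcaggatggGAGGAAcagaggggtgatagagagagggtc
C1qc: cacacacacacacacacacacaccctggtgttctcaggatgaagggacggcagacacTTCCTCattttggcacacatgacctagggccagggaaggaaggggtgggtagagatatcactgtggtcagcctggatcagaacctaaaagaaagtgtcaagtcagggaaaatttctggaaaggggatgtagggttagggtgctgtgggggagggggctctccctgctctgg
Cd5l: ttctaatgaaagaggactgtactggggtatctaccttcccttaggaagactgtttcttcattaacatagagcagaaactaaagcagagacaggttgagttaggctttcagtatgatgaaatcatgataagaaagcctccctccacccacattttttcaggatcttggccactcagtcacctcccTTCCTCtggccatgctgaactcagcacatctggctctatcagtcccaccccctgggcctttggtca
Spic: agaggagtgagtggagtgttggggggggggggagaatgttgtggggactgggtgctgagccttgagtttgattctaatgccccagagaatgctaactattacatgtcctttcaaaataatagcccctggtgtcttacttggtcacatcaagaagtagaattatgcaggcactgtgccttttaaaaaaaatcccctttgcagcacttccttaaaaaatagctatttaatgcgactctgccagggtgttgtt
C1qb (chr4:136886201-136886450), C1qc (chr4:136892937-136893164) and Spic (chr10:88683024-88683273) are on the minus strand, and Cd5l (chr3:87357631-87357880) is on the plus strand. The motif GAGGAA, a core bound by factors of the PU.1 and SPI-C type, occurred once each in C1qb, C1qc and Cd5l and in no stretch of Spic or Mertk, counting both strands. It is found in 23.3% of the 32851 upstream windows of that length or less. TGACNNNGC, the core of the antioxidant response element, occurred once in C1qb and in 10.2% of all windows. AGATAA, a binding core known from erythroid genes, was in none of the 5 stretches and in 9.99% of all windows. No 2 matches overlapped.

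All values are log2(scaled RPKM + 1), where RPKM is the read number per transcript length and sequencing depth, scaled so that the 75th percentile of each library is 10. A value of 0 is no signal, and because 1 is added before the logarithm, differences of low genes understate the fold change. Between 10154 and 11011 genes reached a scaled RPKM of 1 in a library. Of the T lineage markers, Cd3d, Cd3e, Cd3g and Lck were at 6.64 or more in every library, while Cd4 was lower in WT T-ALL (1.90 to 6.30) than in thymus (8.31 to 8.86). Of 5 thymic epithelium markers, Foxn1, Psmb11 and Krt5 were under a scaled RPKM of 0.5 in all 6 controls, whereas Epcam read 2.16 to 2.43 and Krt8 0.12 to 1.18. Notch3 itself ranged from 2.62 to 4.29 in thymus. It ranged from 3.17 to 5.78 in WT T-ALL, and Notch3 KO T-ALL had 2.59 to 3.74, so the transcript was still read where a cassette interrupts it, and these levels do not check the deletion. The values hold a split of the libraries that neither labels nor headers give. The same cut, a gap of at least 0.6 on the log2 scale, ran through 5 genes (1110002L01Rik, Sco2, D330050I16Rik, Srsf4 and Nr2c2ap). It placed thymus 5 and 6, WT T-ALL 3, 4, 5 and 7 and the 3 Notch3 KO T-ALL in library set A, and the other 14 libraries in library set B. Its origin is unknown. Since no Notch3 KO T-ALL is in set B, results are also given within the sets.

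**Figure D1:**
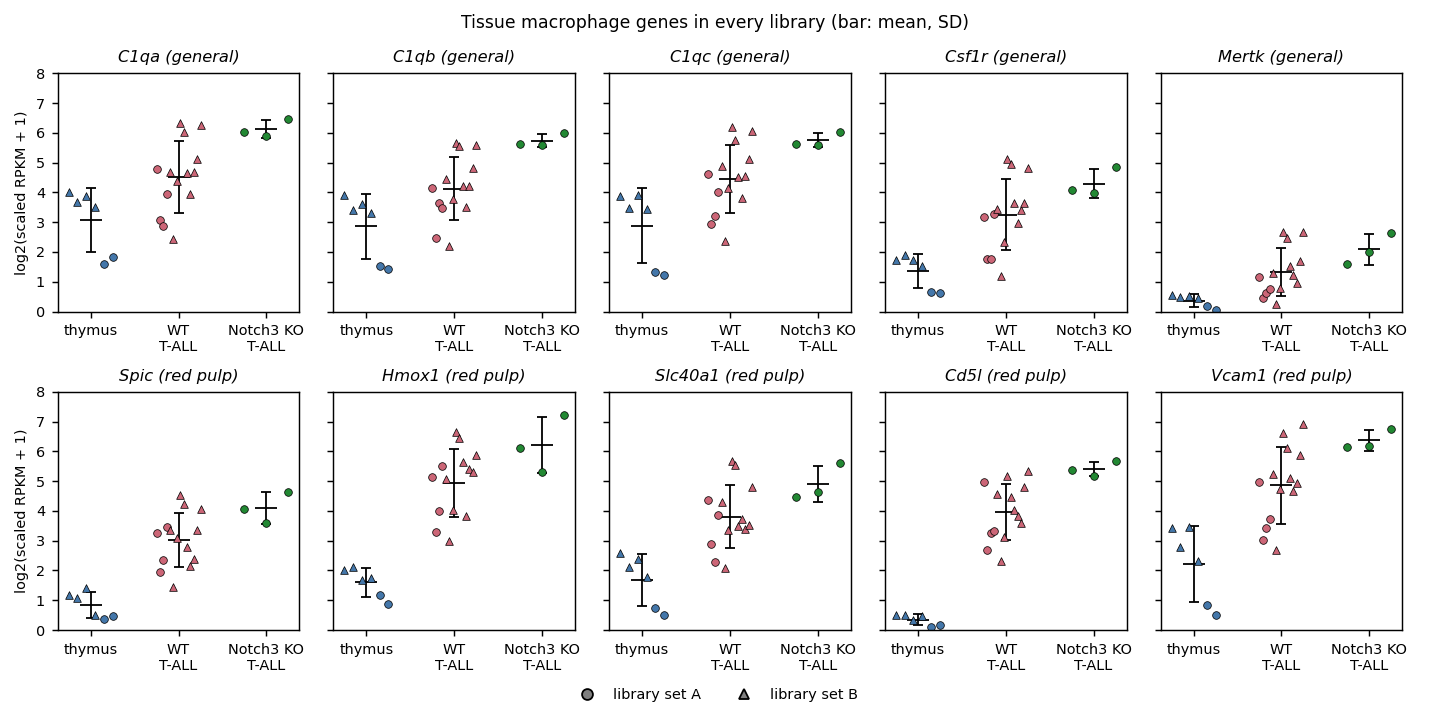
Level of each gene (vertical axis, log2(scaled RPKM + 1)) in every library of thymus, WT T-ALL and Notch3 KO T-ALL, with circles for library set A, triangles for set B and bars for the mean and SD. Cd5l, Hmox1 and Spic show no overlap between the 6 thymus libraries and the 14 WT T-ALL libraries, and thymus 5 and 6, of set A, are the lowest libraries for every gene.

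The genes of red pulp and iron recycling were all higher in T-ALL spleen than in thymus. Cd5l was nearly silent in thymus, with a lowest, median and highest value of 0.10, 0.41 and 0.51, and reached 2.33, 3.93 and 5.34 in WT T-ALL and 5.39, 5.19 and 5.67 in Notch3 KO T-ALL 1, 2 and 3. Every T-ALL spleen lay far above the highest thymus. The difference was 3.62 ± 0.35 (SE) for WT T-ALL, the largest of the 10 genes over all libraries (within library set A Hmox1 had 3.45 and Cd5l 3.42), and 5.06 ± 0.51 for Notch3 KO T-ALL (limma adjusted p = 3.43e-08 and 1.64e-07). As linear scaled RPKM, its mean was 0.282 ± 0.155 (SD, n = 6), 17.9 ± 11.5 (n = 14) and 42.1 ± 7.33 (n = 3) in the same order. Hmox1 had a lowest, median and highest value of 0.88, 1.72 and 2.12 in thymus, and of 3.00, 5.24 and 6.65 in WT T-ALL. Notch3 KO T-ALL 1, 2 and 3 read 6.11, 5.32 and 7.21. The ranges of thymus and T-ALL spleen were again apart, by 3.34 ± 0.45 and 4.61 ± 0.65 on average (limma adjusted p = 3.28e-06 and 1.56e-05).

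Spic ran from 0.37 over a median of 0.80 to 1.43 in thymus and from 1.45 over 3.17 to 4.53 in WT T-ALL, so that the lowest tumor, WT T-ALL 36, lay just above the highest thymus. The Notch3 KO T-ALL libraries read 4.06, 3.58 and 4.64. The rise was 2.19 ± 0.35 in WT T-ALL and 3.25 ± 0.51 in Notch3 KO T-ALL (limma adjusted p = 2.62e-05 and 4.61e-05). Slc40a1 was between 0.51 and 2.57 in thymus (median 1.95) and between 2.07 and 5.69 in WT T-ALL (median 3.64), with 12 of the 14 tumors above every thymus. Its values in Notch3 KO T-ALL 1, 2 and 3 were 4.47, 4.63 and 5.60. It rose by 2.12 ± 0.45 and 3.22 ± 0.65 (limma adjusted p = 0.00047 and 0.000558). Vcam1 was the highest of the 10 genes in WT T-ALL by mean linear level, at 39.7 ± 34.2 (SD, n = 14), a spread far wider than its distance to the next genes Hmox1 (38.8 ± 27.9) and C1qa (30.2 ± 25.3). On the log2 scale it ran from 0.51 over 2.56 to 3.45 in thymus, from 2.69 over 4.95 to 6.91 in WT T-ALL, and read 6.15, 6.18 and 6.76 in Notch3 KO T-ALL. Its rise was 2.63 ± 0.55 and 4.14 ± 0.80 (limma adjusted p = 0.000454 and 0.000389). Here 11 of the 14 WT T-ALL lay above every thymus.

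The general macrophage genes were also higher in the T-ALL spleens. Over all libraries their log2 differences between WT T-ALL and thymus, 0.95 to 1.89, were below those of the red pulp genes, 2.12 to 3.62. This order was not kept throughout, since C1qc (2.41) exceeded Spic (2.33) within library set A, Csf1r (1.83) exceeded Slc40a1 (1.77) within set B, and the ratio of linear means was 6.90 for Csf1r and 6.40 for Slc40a1. For each general gene some WT T-ALL lay within the range of thymus, as was the case for Slc40a1 and Vcam1. C1qa, the first of the C1q chains, was at 1.59, 3.59 and 4.02 (lowest, median, highest) in thymus and at 2.42, 4.67 and 6.35 in WT T-ALL, and 9 of the 14 tumors exceeded every thymus. Notch3 KO T-ALL 1, 2 and 3 read 6.02, 5.91 and 6.48, above all controls. The difference from thymus was 1.43 ± 0.51 for WT T-ALL and 3.05 ± 0.74 for Notch3 KO T-ALL (limma adjusted p = 0.0221 and 0.00256). C1qb and C1qc gave 1.26 ± 0.46 and 1.57 ± 0.51 in WT T-ALL (limma adjusted p = 0.0274 and 0.0131) and 2.86 ± 0.67 and 2.87 ± 0.73 in Notch3 KO T-ALL (0.00205 and 0.00404). The chains were the 3 highest members in thymus by linear level, with means of 9.27 ± 5.67, 8.46 ± 5.72 and 7.91 ± 5.06 (SD, n = 6) for C1qa, C1qc and C1qb, which do not differ beyond their spread. Csf1r, the receptor for the growth factor CSF1, was at 0.61, 1.63 and 1.89 in thymus and at 1.20, 3.35 and 5.11 in WT T-ALL, and 4.06, 3.97 and 4.86 in Notch3 KO T-ALL. It rose by 1.89 ± 0.47 and 2.94 ± 0.67 (limma adjusted p = 0.00187 and 0.00172). Mertk, which binds dying cells through bridging proteins, was the lowest member in both T-ALL groups. It was at 0.05, 0.47 and 0.55 in thymus, at 0.24, 1.19 and 2.68 in WT T-ALL and at 1.61, 2.01 and 2.64 in Notch3 KO T-ALL, a rise of 0.95 ± 0.31 and 1.71 ± 0.45 (limma adjusted p = 0.0138 and 0.00476).

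Thus 10 of 10 genes passed the filter on low values and were called higher in both comparisons with thymus, which share their controls. Among the 11919 genes tested, 29.3% were called higher in WT T-ALL and 21.2% in Notch3 KO T-ALL. The median difference of the members was 2.01 in WT T-ALL and 3.13 in Notch3 KO T-ALL, against 0.08 in each over all genes. All WT T-ALL lay above all thymus for 3 of the 10 members (Cd5l, Hmox1 and Spic), and for 8.42% of all genes tested. All Notch3 KO T-ALL did so for 10 of 10, against 23.9% of all genes. The data are of bulk tissue, in which fewer cells of a type and less RNA per cell cannot be told apart. Thymus 5 and 6 stood apart from the other controls: C1qa was at 1.59 and 1.83 there and at 3.50 to 4.02 in thymus 1 to 4, and Vcam1 at 0.84 and 0.51 against 2.32 to 3.45. Without thymus 5 alone or thymus 6 alone, the C1q chains lost their call in WT T-ALL (differences of 0.97 to 1.25, limma adjusted p of 0.0527 to 0.101), and 7 members kept it. Without both, Mertk lost it too (0.82, limma adjusted p = 0.0857), and C1qa, C1qb and C1qc differed by 0.75, 0.56 and 0.77 (0.282, 0.361 and 0.241). C1qa and C1qb also lost it (1.08 and 0.92, limma adjusted p = 0.0642 and 0.0879) when libraries were rescaled without mitochondrial and hemoglobin genes. Within library set B, with 10 WT T-ALL and the 4 remaining controls, the 5 red pulp genes were called (differences of 1.77 to 3.67, limma adjusted p at most 0.0126), as were Csf1r and Mertk, while C1qa, C1qb and C1qc differed by 1.09, 0.84 and 1.07 (0.119, 0.188 and 0.115), beside 42.7% of all genes called in either direction. Within set A, with 4 WT T-ALL and 2 controls, 9 of 10 were called, Mertk being the exception (0.64, adjusted p = 0.226 by limma), beside 15.2% of all genes. In Notch3 KO T-ALL all 10 were called within set A, by 1.97 (Mertk) to 5.69 (Vcam1, above Cd5l at 5.28), beside 25.1% of all genes.

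**Figure D2:**
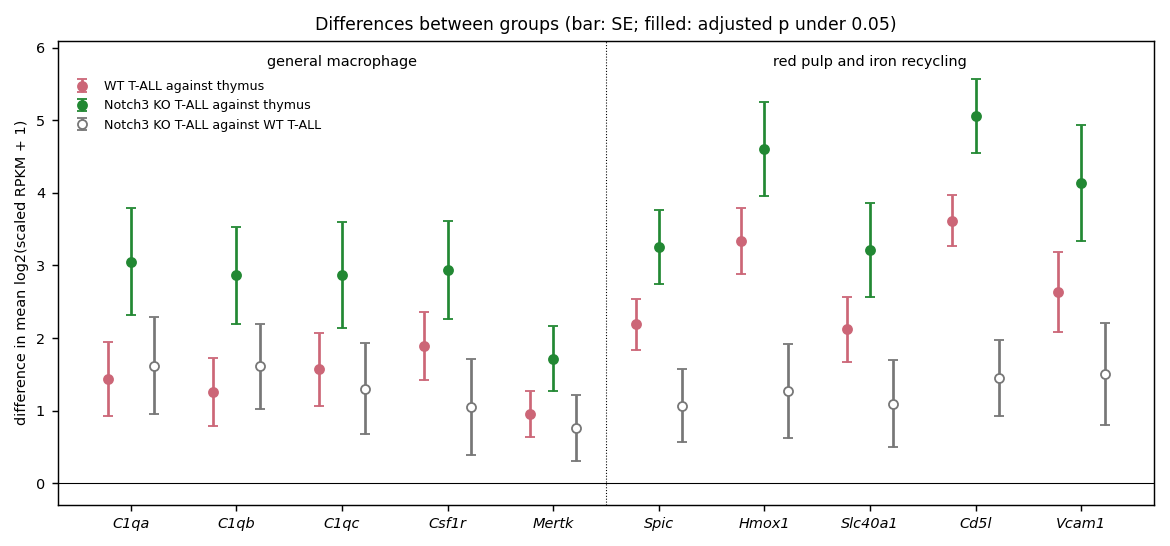
Difference in mean log2(scaled RPKM + 1) for each gene (vertical axis), with its SE as bars, for WT T-ALL against thymus, Notch3 KO T-ALL against thymus and Notch3 KO T-ALL against WT T-ALL. Filled points have a limma adjusted p under 0.05, and over all libraries the largest differences from thymus are those of Cd5l at 3.62 and 5.06.

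Blood cell markers moved with the groups. The erythroid index, log2(1 + the summed scaled RPKM) of 9 listed red cell precursor genes such as Alas2 and the globins, was 4.67 to 8.62 in thymus. WT T-ALL had 9.56 to 15.7 and Notch3 KO T-ALL 14.9 to 16.7, with no overlap between thymus and T-ALL. Slc4a1, Epb42 and Klf1 were under 0.5 scaled RPKM in every control. The same sum over 8 neutrophil genes (S100a8, S100a9, Ly6g, Ngp, Camp, Ltf, Mpo and Elane) was 5.86 to 9.05, 9.32 to 16.4 and 7.67 to 12.9. Of 5 endothelial markers, all were under 0.5 scaled RPKM in every control, and their summed value was 0.15 to 0.59 in thymus, 0.35 to 2.61 in WT T-ALL, which overlaps with thymus, and 2.39 to 2.82 in Notch3 KO T-ALL. Emcn and Tek stayed under 0.5 scaled RPKM in every library. The 5 stromal markers summed to 1.10 to 1.84, 2.12 to 6.58 and 3.36 to 5.21, a sum carried by Pdgfrb (median 5.09 in WT T-ALL). Pdgfra was under 0.5 in every library, and Col1a1, Col3a1 and Dcn had a mean of 0.30, 0.14 and 0.21 in WT T-ALL, so stroma as a class was not shown to be higher in that group. In Notch3 KO T-ALL, Col1a1 (0.65 to 1.79) and Pdgfra (0.07 to 0.29) lay above thymus (at most 0.21 and 0.016). Col3a1 and Dcn overlapped with thymus. The summed level of the 4 monocyte markers overlapped between thymus (5.72 to 6.19) and WT T-ALL (2.75 to 7.38), and was below every thymus in Notch3 KO T-ALL (3.53 to 4.95). In thymus this sum was carried by F13a1 (mean of 5.69, against 3.42 in Notch3 KO T-ALL), while Vcan was higher in Notch3 KO T-ALL (0.50 to 0.84) than in thymus (0.15 to 0.38), so monocyte markers as a class were not shown to be lower. The 5 dendritic cell markers summed to 1.14 to 2.07, 0.94 to 3.75 and 2.17 to 2.87, and thymus overlapped with WT T-ALL. With the erythroid index as a covariate, 1 of 10 members (Cd5l, 2.43, limma adjusted p = 0.0338) was called in WT T-ALL and 0 in Notch3 KO T-ALL, and the differences of the C1q chains, Csf1r, Mertk and Vcam1 turned negative in both. Of all 11919 genes, 14.2% and 6.66% were called in that fit in either direction, against 51.6% and 37.5% without the covariate. Since the index does not overlap between thymus and T-ALL, its part and that of the group cannot be told apart. With the neutrophil index as a covariate, 3 of 10 were called in WT T-ALL and the C1q chains turned slightly negative, while 8 of 10 were called in Notch3 KO T-ALL. Of all genes, 28.4% and 26.2% were called there. The neutrophil index does not overlap between thymus (at most 9.05) and WT T-ALL (at least 9.32) either. Its part and that of the group cannot be told apart in that comparison. The part of the other cell types was not tested.

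The contrast of the red pulp genes with the general genes was read within each library, as the mean log2 level of the 5 red pulp members minus that of the 5 general members. In thymus this balance was below 0 in every library, at -1.07, -0.87 and -0.40 (lowest, median, highest). In WT T-ALL it was above 0 in all 14, at 0.31, 0.57 and 0.95, and in Notch3 KO T-ALL 1, 2 and 3 it was 0.65, 0.37 and 0.78. The mean was -0.77 ± 0.25 (SD, n = 6), 0.59 ± 0.18 (n = 14) and 0.60 ± 0.21 (n = 3). The T-ALL groups differed in mean balance by 0.0091, less than the SD of either, while thymus did not overlap with them. The sign of that small difference was not stable, and within set A it was -0.18. The difference between WT T-ALL and thymus was 1.36, and it was 1.24 within library set A and 1.44 within set B. Against thymus, Notch3 KO T-ALL differed by 1.37, and by 1.06 within set A.

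Single genes were then set against C1qa, as the log2 ratio of linear values in each library, since the added 1 compresses the low values of thymus. Cd5l to C1qa averaged -4.93 ± 0.42 (SD, n = 6) in thymus, -0.58 ± 0.61 (n = 14) in WT T-ALL and -0.74 ± 0.086 (n = 3) in Notch3 KO T-ALL. For Hmox1 the ratio was -1.86 ± 0.70, 0.45 ± 0.58 and 0.076 ± 0.67 in that order, and for Vcam1 it was -1.23 ± 0.76, 0.36 ± 0.30 and 0.23 ± 0.085. Spic to C1qa was -3.35 ± 0.69 in thymus, -1.63 ± 0.57 in WT T-ALL and -2.11 ± 0.28 in Notch3 KO T-ALL. For these 4 genes every T-ALL spleen lay above every thymus. Slc40a1 had -1.90 ± 0.38, -0.76 ± 0.53 and -1.26 ± 0.36, and Csf1r, a general gene, had -2.32 ± 0.31, -1.41 ± 0.39 and -1.90 ± 0.21, and for both the ranges of thymus and WT T-ALL overlapped. On the log2(scaled RPKM + 1) scale the differences from C1qa were smaller in thymus, at -2.73 ± 0.92 for Cd5l and -2.24 ± 0.76 for Spic. On that scale thymus and WT T-ALL overlapped for Spic, Cd5l (thymus up to -1.49, WT T-ALL from -1.57) and Hmox1 (up to -0.40 and from -0.42). For Vcam1 they did not overlap there. These differences between ratios were not tested.

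**Figure D3:**
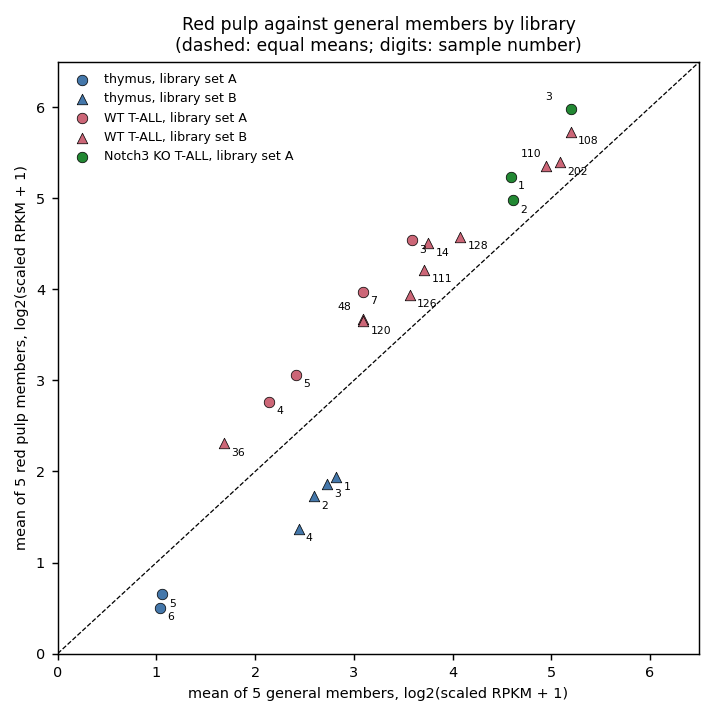
Mean of the 5 red pulp genes (vertical axis) against the mean of the 5 general genes (horizontal axis), both in log2(scaled RPKM + 1), for each library, with the line of equal means. The 6 thymus libraries lie below the line and the 17 T-ALL libraries above it.

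Tumor by tumor, all 10 genes rose and fell together over the 14 WT T-ALL spleens. WT T-ALL 36 was the lowest for every member. WT T-ALL 108 was the highest for 8 and WT T-ALL 202 for the other 2, Cd5l and Vcam1. All 45 pairs correlated, with Pearson's r between 0.79 and 0.99 and Spearman's rho between 0.71 and 0.98, and each pair had a permutation p under 0.05 after adjustment over the 45 pairs for both measures. The share of correlated pairs among all genes was not computed. Over all genes tested, the median r was -0.06 with C1qa and -0.05 with Slc40a1. Without the pair of tumors farthest from the median of the first gene, r was 0.63 to 0.99. Within library set B (10 tumors), r was 0.82 to 1.00. Every pair shares its libraries, so amount of tissue and library make-up enter all of them alike. The general genes were the tightest group, with r of 0.94 to 0.99 over their 10 pairs, and red pulp pairs ranged from 0.79 (Hmox1 with Cd5l) to 0.91 (Cd5l with Vcam1). Pairs of a general with a red pulp gene had r of 0.83 to 0.98. Their median of 0.90 was above that of the red pulp pairs, 0.84. Vcam1 ran closer to the general genes (0.97 with C1qa and 0.98 with C1qc) than to Spic, Hmox1 or Slc40a1 (0.84, 0.83 and 0.84). These differences between coefficients were not tested.

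**Figure D4:**
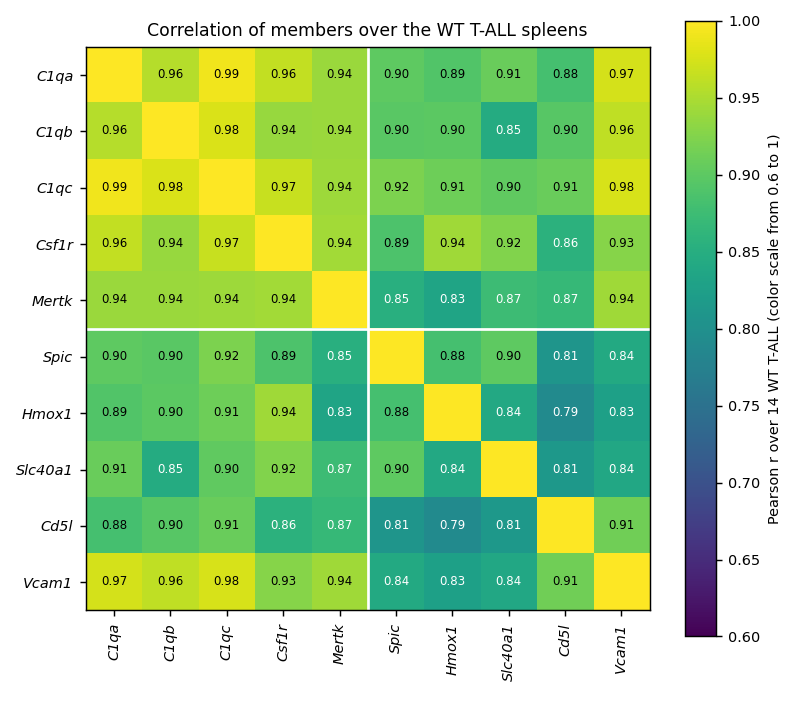
Pearson's r of each pair of genes over the 14 WT T-ALL spleens (rows and columns are genes, color scale from 0.6 to 1), with lines between general and red pulp genes. Values run from 0.79 for Hmox1 with Cd5l to 0.99 for C1qa with C1qc, and the row of Vcam1 is brightest in the general block.

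Over the whole table of 11919 tested genes, the 5 most like C1qa in the 14 WT T-ALL were C1qc (r = 0.99), Vcam1 (0.97), Csf1r (0.96), C1qb (0.96) and Mpeg1 (0.95), a pore-forming protein of macrophages, where the median gene had an r of -0.06. The list for Slc40a1 held no other member. It was led by Tifa (0.96), an adaptor of NF-kappaB signaling, followed by Ifi44l (0.95), Adgre1 (0.95), which encodes the macrophage antigen F4/80, AF251705 (0.94) and the Src family kinase Lyn (0.94). The ratios of the C1q chains, which assemble in fixed proportion, were read by group without a test. On linear values the log2 ratio of C1qa to C1qc was 0.07 ± 0.18 (SD) over WT T-ALL, 0.39 ± 0.08 over Notch3 KO T-ALL and 0.29 ± 0.34 over thymus, with no overlap between the T-ALL groups. All 3 Notch3 KO T-ALL are of library set A. That of C1qb to C1qc was -0.34 ± 0.27 over WT T-ALL, -0.015 ± 0.018 over Notch3 KO T-ALL and 0.024 ± 0.27 over thymus. WT T-ALL 5 stood apart, with a log2 ratio of C1qa to C1qb of -0.86 where the group mean was 0.41 ± 0.40. The 3 Notch3 KO T-ALL gave 0.33 to 0.50 for that ratio, with the same mean of 0.41.

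The members were compared with the erythroid and neutrophil content of the same tumors. The share of all genes that correlate with either index was not computed, so counts of members cannot set them apart from other genes. Over the 14 WT T-ALL, Pearson's r with the erythroid index was between 0.39 (Hmox1) and 0.66 (Vcam1), and 0 of 10 members passed after adjustment over the 10 (permutation p adjusted to 0.0784 at best). By Spearman's rho, 5 members passed, at an adjusted permutation p of 0.0413 each (C1qa, C1qb, C1qc, Mertk and Vcam1, rho of 0.62 to 0.69). WT T-ALL 48 and 7, with an erythroid index of 15.7 and 9.56, were the farthest from the median. Without both, r rose to between 0.58 (Cd5l) and 0.82 (Csf1r), and without WT T-ALL 48 alone 8 of 10 members passed. In WT T-ALL 48, C1qa was 4.40 and Hmox1 4.02, both below the group's median, beside the highest erythroid index of the group. Within library set B r was 0.29 to 0.66 and 0 of 10 passed, with an adjusted permutation p of 0.232 or more.

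The neutrophil index gave r of 0.57 (Cd5l) to 0.76 (Slc40a1), and 10 of 10 members passed at an adjusted permutation p of 0.00618 to 0.0295. Here too the share over all genes is unknown. This relation rested in part on WT T-ALL 108 and 110, whose index was 14.1 and 16.4. Without them r fell to 0.40 for Mertk and was at most 0.63 (C1qa), and within set B 0 of 10 passed (r of 0.42 to 0.71, adjusted permutation p of 0.0903 or more). In Notch3 KO T-ALL 2 the neutrophil index was 7.67, below all WT T-ALL and far below 12.7 and 12.9 in the other Notch3 KO T-ALL, while its general mean of 4.61 was level with 4.59 in Notch3 KO T-ALL 1. Its red pulp mean of 4.98 and its Hmox1 of 5.32 were the lowest of the 3.

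**Figure D5:**
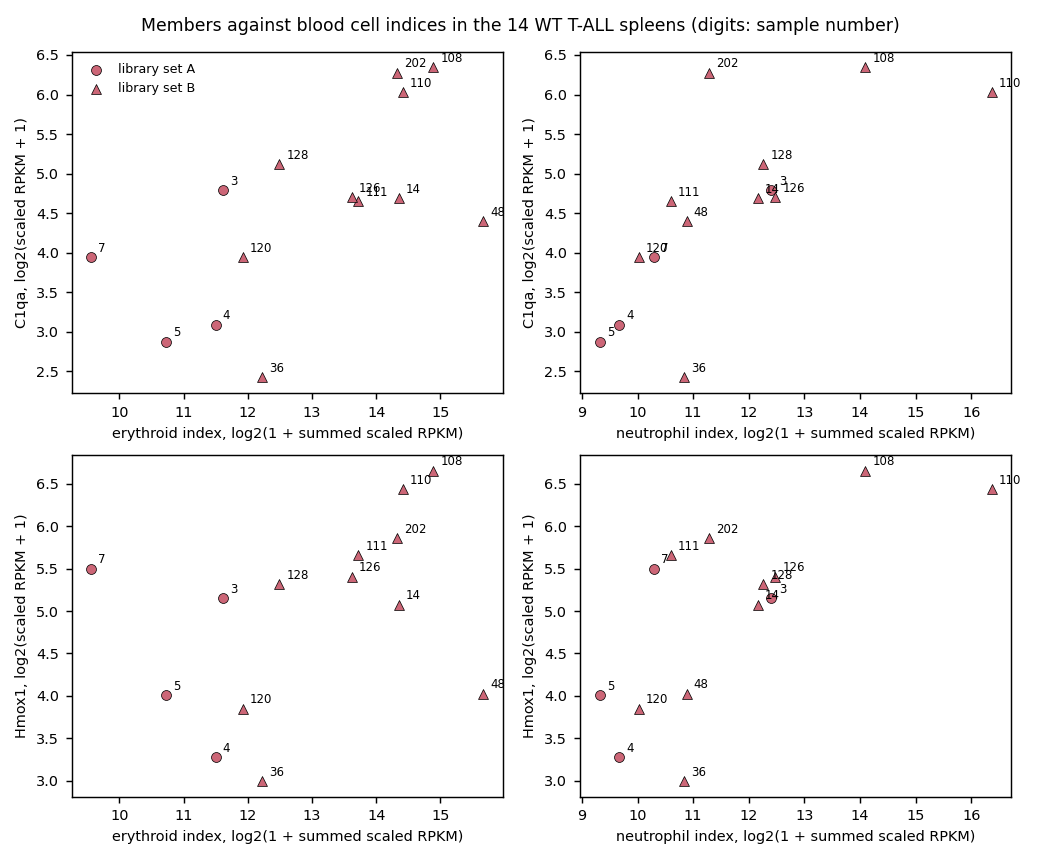
C1qa and Hmox1 (vertical axes, log2(scaled RPKM + 1)) against the erythroid and the neutrophil index (horizontal axes, log2(1 + summed scaled RPKM)) in the 14 WT T-ALL spleens, with sample numbers and library sets. WT T-ALL 48 has the highest erythroid index, 15.7, with a C1qa of 4.40, and WT T-ALL 110 has the highest neutrophil index, 16.4.

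Whether spleens with T-ALL from a Notch3-deficient graft differed from those with WT T-ALL was tested in the T-ALL samples alone. All 10 genes had a higher mean in Notch3 KO T-ALL, by 0.76 (Mertk) to 1.62 (C1qa), and 0 of 10 were called, beside 0.591% of the 11677 genes tested that were called higher. The smallest limma adjusted p were 0.291 for Cd5l (1.45 ± 0.52) and 0.299 for C1qb (1.61 ± 0.58), and 5 of 10 members had an unadjusted limma p under 0.05, as had 994 of all 11677 genes. Each Notch3 KO T-ALL lay above the WT T-ALL median for every member. Only Cd5l had more than 1 of them above the highest WT T-ALL, with 2 of 3. All 3 Notch3 KO T-ALL belong to library set A. In its WT T-ALL 3, 4, 5 and 7, C1qa read 4.79, 3.08, 2.87 and 3.94, of which only the first is above the median of all WT T-ALL. Within that set the differences grew to 1.34 (Mertk) to 2.57 (Vcam1), with 0 of 10 called and limma adjusted p of 0.0749 to 0.33. There, every Notch3 KO T-ALL lay above every WT T-ALL for 9 of 10 members, Hmox1 being the exception, against 6.09% of the 10990 genes tested. With 3 and 4 spleens, a difference of this size was not called, which does not show that the groups were alike. The erythroid index was higher too, at 14.9 to 16.7 against 9.56 to 11.6 in the 4 WT T-ALL of the set, and with it as a covariate over all T-ALL the differences were -0.023 (Mertk) to 0.83 (Cd5l), with 0 of 10 called.

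Other genes of the same pathways were counted by lists. Their counts stand beside the 29.3% of all genes called higher and 22.3% called lower in WT T-ALL, and 21.2% and 16.3% in Notch3 KO T-ALL, with no test of any list. Of 12 further genes of heme and iron handling, 11 could be tested, and 8 were called higher and 1 lower in both T-ALL groups. Blvrb, a biliverdin reductase that is also abundant in red cells, lay between 1.08 and 2.36 in thymus and between 4.18 and 6.93 in WT T-ALL, a rise of 3.40 ± 0.35 (limma adjusted p = 6.99e-08), and by 5.02 ± 0.50 in Notch3 KO T-ALL. Slc11a1, a metal transporter of the phagosome, rose by 1.36 ± 0.33 (0.00141 by limma). Bach1, a heme-sensitive repressor of Hmox1, fell by 0.76 ± 0.16 (limma adjusted p = 0.000385). Ncoa4, the receptor for ferritin breakdown, was at 5.43 to 6.18 and 5.26 to 6.89, a difference of 0.20 ± 0.24 that was not called. Among 7 genes of splenic macrophage subsets, 5 could be tested, and 4 were called higher in WT T-ALL and 5 in Notch3 KO T-ALL. Treml4 rose by 1.67 ± 0.34 and the integrin gene Itgad by 1.64 ± 0.39 (limma adjusted p = 0.000293 and 0.00127). Marco, a scavenger receptor of marginal zone macrophages, reached 0.06 at most in thymus and 1.98 at most in WT T-ALL (0.54 ± 0.20, limma adjusted p = 0.0267), and Adgre1 gave 0.78 ± 0.41 (0.113). Siglec1 and Cd209b, known for macrophages at the edge of the white pulp, stayed under the filter, with Cd209b at 0.11 or less in every library.

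Of 15 general macrophage and dead cell clearance genes, 14 were tested, and 9 were higher and 0 lower in WT T-ALL, 8 and 0 in Notch3 KO T-ALL. Sirpa, an inhibitory receptor for CD47, rose by 1.76 ± 0.46 and the mannose receptor gene Mrc1 by 1.64 ± 0.49 (limma adjusted p = 0.00274 and 0.00779). Tyro3, a relative of Mertk, and the chemokine receptor gene Cx3cr1 had differences of 0.10 ± 0.22 and -0.04 ± 0.22 (0.73 and 0.9 by limma). Only 4 of 8 ligand and partner genes passed the filter. Il34, a ligand of CSF1R, was higher in thymus, at 1.53 to 2.06 against 0 to 0.27 in WT T-ALL, and fell by 1.61 ± 0.17 (limma adjusted p = 1.32e-07), opposite in sign to Csf1r itself. In Notch3 KO T-ALL 1 of 3 libraries reached 1.84, within the range of thymus. Csf1, the other ligand, was under the filter. Pros1, a bridging ligand of MERTK, rose by 0.67 ± 0.26 (0.0325), and of the chains of the VCAM-1 receptor, Itga4 and Itgb1 had differences of -0.49 ± 0.34 and 0.32 ± 0.21 that were not called (0.23 and 0.199). Within library set A, with 4 WT T-ALL against 2 controls, several of these genes were not called, though Slc11a1 (1.33, limma adjusted p = 0.0745) and Sirpa (1.75, 0.0522) differed about as much as over all libraries. The others were Itgad (1.29, 0.0821), Mrc1 (1.26, 0.0967), Bach1 (-0.56, 0.233) and Pros1 (0.42, 0.359). Pros1 was also not called within set B (0.76, limma adjusted p = 0.0874), after quantile normalization (0.51, 0.0681) or after rescaling (0.57, 0.0581). The same held without thymus 2, 4, 5 or 6 alone (differences of 0.64 to 0.67, limma adjusted p of 0.0541 to 0.064). Without thymus 5 and 6 together, Pros1 (0.63, limma adjusted p = 0.115), Mrc1 (1.28, 0.0819) and Marco (0.0822) were not called, the difference of Marco being 0.53 there against 0.54. With the erythroid index as a covariate, Il34 alone of the called genes named from these lists kept its call in WT T-ALL (limma adjusted p = 0.00398, and 0.0813 to 0.991 for the other 9), and Ncoa4 was called lower (-1.50, 0.00914). With the neutrophil index Blvrb, Bach1 and Il34 kept theirs, and the other 7 had a limma adjusted p of 0.158 to 0.932. None of these lists had a gene called between the T-ALL groups in either direction.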

How the data were processed

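Libraries were made with a stranded mRNA kit from total RNA, read in pairs and mapped by the authors with OSA (ArrayStudio) against transcripts of mm10. What the authors deposited is log2 of a scaled RPKM. The offset of 1 and the scaling to a 75th percentile of 10 were read from the values, since every library has that percentile. Counts are not given, so the depth of each library is unknown and no count test or detection limit was used. Paralogs such as the globins may share reads. All 23 value columns were assigned to samples by title, and samples are named by the number in the title. Per the study's description, each T-ALL came from an individual mouse, and p-values measure the spread between these samples.

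The 10 members, the gene lists and the tests were chosen with earlier results of these data known. The filter on low values asked for a scaled RPKM of 1 or more in 3 or more samples of a fit. The test was limma 3.58.1 (R 4.3.3), two-sided, with trend and robust in eBayes, with Benjamini-Hochberg adjustment over all genes tested and a threshold of 0.05. Both comparisons with thymus came from 1 fit of all groups, and the T-ALL groups were compared in a fit of their own. Correlations were tested with 100000 permutations (Python 3.11.15, numpy 2.4.6), two-sided, adjusted over 10 members or 45 pairs. The comparisons with the neutrophil index and the fits within library sets were added after the data were seen, and the term for library set is a planned batch term whose sets were found in the values. For the sets, every gene was cut at its largest gap if that was at least 0.6, and of the cuts with at least 2 thymus and 2 WT T-ALL on each side the one shared by most genes was taken (5 genes, against 3 for the next). In further lists a gene is named where it has one of the 2 highest or 2 lowest differences between WT T-ALL and thymus, and genes most like C1qa and Slc40a1 are the 5 with the highest r, leaving out T-cell receptor, immunoglobulin and predicted genes. Lists were described by counts, and the levels of some marker genes are not reported here. Positions and upstream sequences are from RefSeq on GRCm38.p6, where 24375 of 24475 gene IDs had a position. The fits and permutation tests were tested on simulated data.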

Additional observations from a re-analysis of the deposited data

How the results depend on the processing

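The 10 calls in both comparisons with thymus were unchanged in number with an offset of 0.1 or 0.01, no filter, a filter at 5, quantile normalization, limma without trend and robust, and the library set as a term, and 0 members were called between the T-ALL groups in any alternative run, including all groups in 1 fit. After rescaling without mitochondrial and hemoglobin genes, which moved the median difference of all genes from 0.08 to -0.26 (WT T-ALL) and -0.31 (Notch3 KO T-ALL), C1qa and C1qb were no longer called in WT T-ALL (limma adjusted p = 0.0642 and 0.0879), while all 10 members were called in Notch3 KO T-ALL. With the erythroid index as a covariate the counts were 1 in WT T-ALL and 0 in Notch3 KO T-ALL. Alternatives added after seeing the data gave 6 calls in WT T-ALL with the ribosomal protein level as a covariate, 3 with the neutrophil index and 6 without thymus controls 5 and 6. With the ribosomal protein level, C1qa, C1qb, C1qc and Mertk lost their call (0.98, 0.93, 1.09 and 0.90, limma adjusted p of 0.0964 to 0.257). Mrc1, Pros1 and Marco lost theirs too (limma adjusted p = 0.147, 0.144 and 0.0781). Leaving out 1 sample gave 7 to 10, 10 to 10 and 0 to 0 calls in the 3 comparisons.

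The thymus and T-ALL samples share only numbers, not animals, and the correlation of deviations of same-numbered samples ran from -0.24 to 0.15. With a replicate block on those that share a number, 9 members could be tested and 5 were called for WT T-ALL (3 for the same samples without the block), and 10 for Notch3 KO T-ALL. No paired analysis was possible between the T-ALL groups because they share 1 number only.

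With the erythroid index as a covariate, differences from thymus that turned were, for WT T-ALL, C1qa -1.40, C1qb -1.06, C1qc -1.10, Csf1r -0.17, Mertk -0.59, Vcam1 -0.62, Ncoa4 -1.50, Itgad -0.22, Marco -0.0088, Adgre1 -1.23, Mrc1 -1.20, Cx3cr1 0.44, Pros1 -0.30 and Itgb1 -0.72, and for Notch3 KO T-ALL, C1qa -1.01, C1qb -0.45, C1qc -0.96, Csf1r -0.019, Mertk -0.49 and Vcam1 -0.52. Mertk also turned between the T-ALL groups (-0.023). With the neutrophil index C1qa was -0.21, C1qb -0.19, C1qc -0.022, Ncoa4 -0.17, Adgre1 -0.69 and Itga4 0.21 in WT T-ALL. There, differences that were not called also turned for Ncoa4 (rescaled -0.20, ribosomal protein level -0.36, within set A -0.074, replicate block and the same samples without it -0.37), Adgre1 (-0.013 with and without the block), Cx3cr1 (0.016 with ribosomal protein level, 0.047 without WT T-ALL 14, 36 and 48), Tyro3 (-0.065 with an offset of 0.01, -0.073 with quantile normalization, -0.047 rescaled, -0.031 within set B), Itgb1 (-0.085 rescaled, -0.13 with ribosomal protein level) and Itga4 (0.16 within set A).

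The difference from thymus in the balance of red pulp against general genes was 1.36 for WT T-ALL and 1.37 for Notch3 KO T-ALL. It was 1.78 and 1.70 with an offset of 0.1, and 1.13 and 1.00 with Hmox1, Slc40a1 and Spic only. For Notch3 KO T-ALL it was 1.12 without Cd5l and 1.06 within set A. Leaving out 1 sample gave 1.30 to 1.43 and 1.28 to 1.49. Between the T-ALL groups it was 0.0091, and it turned to -0.080 with an offset of 0.1, -0.048 without Vcam1, -0.12 with Hmox1, Slc40a1 and Spic only, -0.034 without Cd5l and -0.18 within set A, with -0.083 to 0.13 on leaving out 1 sample. The number of members correlated with the erythroid index was 0 to 8 on leaving out 1 sample and 9 without WT T-ALL 14, 36 and 48. For the neutrophil index it was 9 to 10, and 0 within set B, and for pairs 45 to 45. The causes were not tested. The unknown depth limits what can be said of Mertk, Siglec1, Marco and Csf1, which lie near the filter, and 3 Notch3 KO T-ALL of 1 library set limit the comparison of the T-ALL groups.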
